A study of Mus musculus with 11 samples.

Results

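Heparan sulfate enzymes were described here as a set of 10 genes out of the 16755 listed: the 3-O-sulfotransferases *Hs3st6*, *Hs3st1*, *Hs3st3a1* and *Hs3st3b1*, the N-deacetylase/N-sulfotransferase *Ndst1*, the 2-O-sulfotransferase *Hs2st1*, the 6-O-sulfotransferases *Hs6st1* and *Hs6st2*, and the endosulfatases *Sulf1* and *Sulf2*. *Hs3st6* was chosen by its measured levels in these same libraries, since its difference between *Cilk1*-/- and wild type was among the most negative, and the other 9 were added as enzymes that build or trim the same chain. All 10 were measured. The levels of *Hs3st6* are therefore given as a description with no test, in both mutants, since the comparisons share libraries with the one that chose it.

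RNA was sequenced from maxillary molar tooth germs of mouse embryos at E14.5 in 3 genotypes on a C57BL/6 background: 4 wild-type, 4 *Cilk1*-/- and 3 *Cilk1*-/-;PCS1–MRCS1△/△ libraries, with n = 6 per biological replicate. *Cilk1*, listed under its older symbol *Ick*, encodes a kinase that limits the length of primary cilia. The *Cilk1*-/- allele lacks exon 6 and came from crossing floxed mice with *EIIa-Cre* mice, whose Cre acts in germ cells, so that every tissue of the embryo carried the deletion. The PCS1–MRCS1△/△ allele lacks 70 kb that hold oral enhancers of *Shh*, and the embryos with both alleles, called the compound mutant here, carried the same *Cilk1* deletion. No group with the enhancer deletion alone was analysed here. The sample numbers fall in 2 sets. Set 1 holds replicates 1 to 3 of wild type and *Cilk1*-/-. Set 2 holds replicate 4 of each and all 3 compound mutant libraries. Genotype and set can therefore hardly be told apart for the compound mutant. What the sets stand for is not given in the sources used here. The sources do not say whether n = 6 refers to embryos or to tooth germs, nor whether replicates came from separate litters, and embryos of either sex were used without selection. p-values therefore measure the spread between these libraries.

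The values are on a log2 scale of a length-normalised expression value, probably FPKM, and are called levels below. They appear to be log2(value + 1) for most genes, but 257 genes have a value below 0 in at least 1 library, down to −0.446, which that formula cannot give for an FPKM value. How these arose is not given in the sources used here, so the scale is approximate. None of the 10 enzymes has such a value, the lowest level among them being 0.822. Values turned back to the linear scale, as 2 raised to the level minus 1, are named as such. The number of reads behind a value is unknown. Genotypes were compared with limma over all 16755 genes, with the Benjamini-Hochberg adjustment, and a call required an adjusted p under 0.05 together with a change of at least 1.5-fold, which is 0.585 on the log2 scale. *Ick* was at 3.45 to 3.60 in wild type, 2.72 to 2.86 in *Cilk1*-/- and 2.60 to 2.67 in the compound mutant, so all libraries matched their *Cilk1* label. Compound mutant replicate 1 stood apart from the other libraries on the first principal component, and replicate 3 on the second. All 8 dental epithelium and all 11 dental mesenchyme markers were detected. Turned back and summed, the first ran from 1199 to 1569 in wild type, from 1329 to 1608 in *Cilk1*-/- and from 679 to 1531 in the compound mutant, lowest in replicate 1. The second ran from 844 to 935, from 765 to 881 and from 549 to 894. The summed neuron markers were 18.7 to 25.6 in wild type, 31.2 to 39.3 in *Cilk1*-/- and 36.3, 64.5 and 222 from lowest to highest in the compound mutant, the highest in replicate 1. The summed bone and cartilage markers joined different genes in compound mutant replicates 1 and 2. The cartilage collagen *Col2a1* was at 8.62 and 4.88 there, and the bone gene *Ibsp* at 2.93 and 7.42. The sums of these markers were at 686, 344 and 205 in compound mutant replicates 1, 2 and 3, against at most 244 in wild type. The keratinization markers of oral epithelium were at 32.4, 33.4 and 196 in the same libraries, against 60.6 to 118 in wild type and 94.4 to 166 in *Cilk1*-/-, so that replicates 1 and 2 were below every other library and replicate 3 above. Markers of Schwann cells and glia were at 19.5 to 22.2 in wild type, 23.4 to 26.5 in *Cilk1*-/- and up to 47.9 in the compound mutant, and muscle markers were at 8.62 to 29.6, 19.6 to 54.3 and 6.94 to 7.70. Macrophage and endothelium markers overlapped between all genotypes, as did erythroid markers, which were lowest, at 1059, in a compound mutant library. The part of these markers in the results below was not tested. In whole tooth germs, fewer cells of a type and less RNA per cell cannot be told apart. Wild-type and *Cilk1*-/- libraries that carry the same number were not independent, as their deviations from the genotype mean had correlations between −0.892 and −0.741 over all genes. Whether a replicate term was taken out of the values before deposit is not given in the sources used here and was not tested. The spreads and p-values below are those of the deposited values, and may not be those of independent libraries. Where a fit with a replicate block takes a result past the threshold, its adjusted p stands beside that result.

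Heparan sulfate is a long sugar chain attached to core proteins of the cell surface and the extracellular matrix. Exostosins polymerise the chain in the Golgi. Ndst enzymes then replace acetyl groups with sulfate, an epimerase converts part of the uronic acids, Hs2st1 and the Hs6st enzymes add 2-O and 6-O sulfates, and Hs3st enzymes add the rare 3-O sulfate last. Sulf1 and Sulf2 remove 6-O sulfates from finished chains outside the cell. The sulfation pattern governs which ligands the chain binds, among them Hedgehog, FGF, Wnt and BMP proteins, the signals by which dental epithelium and mesenchyme act on each other.

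Wild-type tooth germs expressed all 10 enzymes, and *Hs3st6* was the highest of the 3-O-sulfotransferases. Turned back and per length, the wild-type means were 80.5 for *Sulf2*, 39.7 for *Hs6st1*, 35.5 for *Ndst1*, 30.7 for *Sulf1* and 23.3 for *Hs2st1*. They were 18.8 for *Hs3st6*, 11.4 for *Hs6st2*, 4.28 for *Hs3st1*, 3.91 for *Hs3st3b1* and 0.917 for *Hs3st3a1*. The wild-type ranges overlapped between the neighbours *Hs6st1* and *Ndst1*, *Ndst1* and *Sulf1*, *Hs2st1* and *Hs3st6*, and *Hs3st1* and *Hs3st3b1*, so the order within these pairs is not settled by the libraries. The other neighbours in this order did not overlap. Whether the values are in fact per length was checked over 12434 genes with one GENCODE gene each, where the level and the exon length had a Spearman correlation of −0.024 across genes, against 0.455 once the values were multiplied by the length.

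*Hs3st6* encodes a heparan sulfate glucosamine 3-O-sulfotransferase and lies on the + strand of chromosome 17 (mm10, chr17:24752988-24758684; ENSMUSG00000039628). Its level was 3.89, 4.37, 4.55 and 4.33 in wild-type replicates 1 to 4. In *Cilk1*-/- replicates 1 to 4 it was 3.37, 3.24, 3.05 and 3.18, and in compound mutant replicates 1 to 3 it was 2.99, 3.69 and 3.30. Each library of either mutant was below the lowest wild-type library, and the compound mutant libraries spread to both sides of the *Cilk1*-/- ones. The mean level was 4.29 ± 0.280 (SD, n = 4) in wild type, 3.21 ± 0.132 (n = 4) in *Cilk1*-/- and 3.33 ± 0.348 (n = 3) in the compound mutant. The fitted difference from wild type was −1.07 (standard error 0.161) in *Cilk1*-/- and −0.96 (standard error 0.174) in the compound mutant. Turned back, the means were 18.8, 8.29 and 9.24, which is 0.442 of wild type in *Cilk1*-/- and 0.492 in the compound mutant.

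The gap in *Hs3st6* between *Cilk1*-/- and wild type was present in both sets of libraries. Since *Hs3st6* was chosen for its low level in these same libraries, its values by set and with libraries left out only describe it. They are no further support for the gap. In the set with replicates 1 to 3 of both genotypes, wild type ran from 3.89 to 4.55 and *Cilk1*-/- from 3.05 to 3.37. In the other set, the single wild-type library was at 4.33 and the single *Cilk1*-/- library at 3.18. The compound mutant libraries, all in this other set, ran from 2.99 to 3.69. Ranked from the lowest difference in *Cilk1*-/- over all genes, *Hs3st6* was at place 4, with *Spp1* at −1.27 just before it and *Nptx2* at −1.03 just after. Leaving out any 1 library kept the difference between −1.21 and −0.99 in *Cilk1*-/- and between −1.14 and −0.79 in the compound mutant. Compound mutant replicate 2 was at −1.82 on the first principal component, against 4.12 to 11.2 in wild type and *Cilk1*-/- and −48.5 in compound mutant replicate 1. Its summed dental epithelium markers, at 1042, were below every wild-type and *Cilk1*-/- library. Its summed bone and cartilage markers were above wild type. Among the bone and cartilage markers, *Ibsp* (7.42), *Col2a1* (4.88), *Col9a1*, *Acan* and *Matn1* were above every wild-type library. *Runx2*, *Sp7*, *Alpl*, *Bglap* and *Sox9* lay inside the wild-type range. Replicate 2 had the highest *Hs3st6* level of its genotype. With that library alone, assumed to vary like the other genotypes, the difference from wild type was −0.60 (standard error 0.202).

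**Figure D1:**
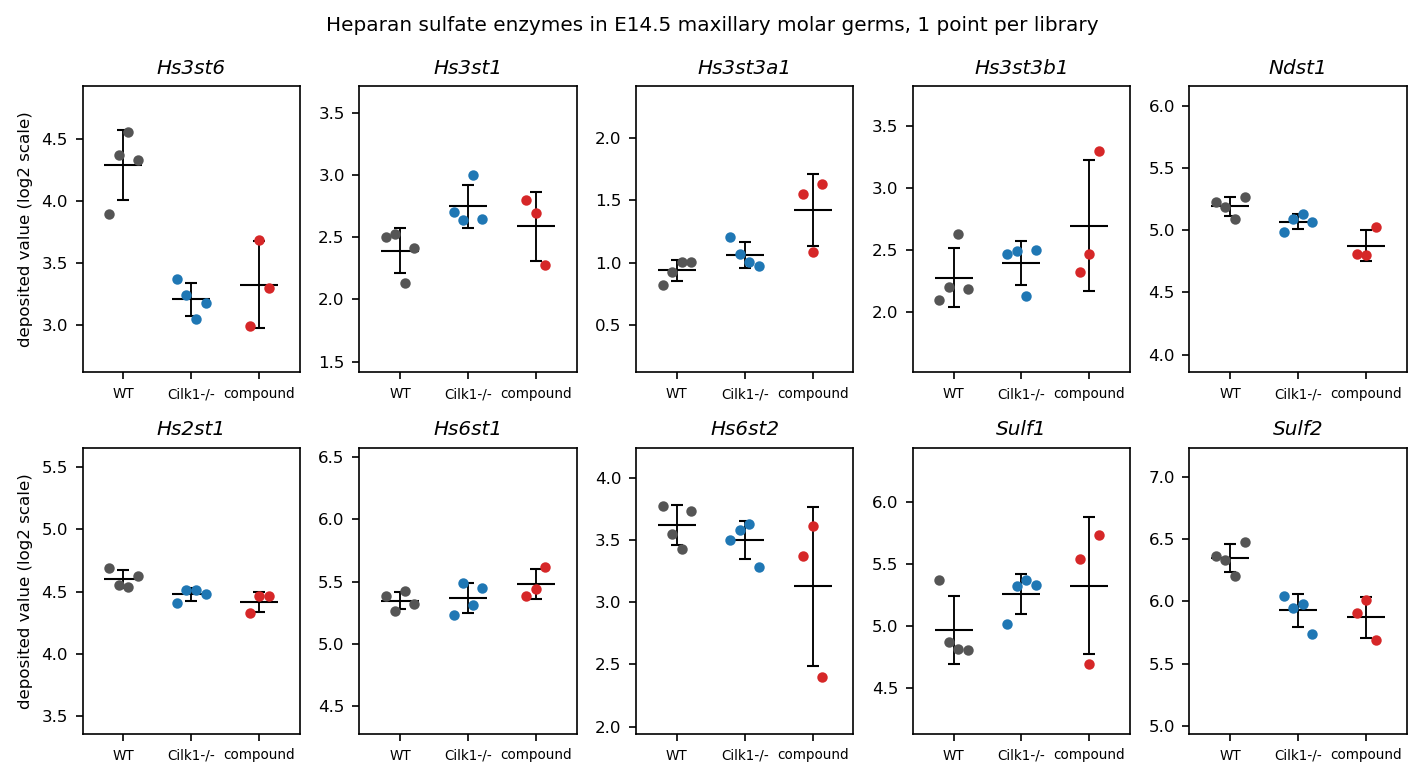
Levels of the 10 enzymes, as deposited on a log2 scale, on the y axis, in wild-type (WT), Cilk1-/- and compound mutant libraries on the x axis. Each point is 1 library, the long line is the genotype mean and the whiskers are the SD; every panel spans the same number of log2 units but starts at its own level. Hs3st6, Sulf2 and Hs2st1 have every mutant library below every wild-type library, and the compound mutant spreads most in Hs6st2, Sulf1 and Hs3st3b1.

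Among the other 9 enzymes, 0 were called in *Cilk1*-/- against wild type by limma, where 0.37% of all genes were. In the compound mutant, 0 of the 9 were called against wild type (1.25% of all genes) and 0 against *Cilk1*-/- (0.543% of all genes). With the replicate block, 0 of the 9 were called in each comparison, beside 0.0239%, 0.155% and 0.0119% of all genes. At an unadjusted p under 0.05 with no fold minimum, 3 of the 9 passed in *Cilk1*-/-, 4 in the compound mutant against wild type and 2 between the mutants. Of all genes, 20.7%, 26.7% and 23.2% passed that unadjusted p in the 3 comparisons. At an adjusted p under 0.05 with no fold minimum, 1 of the 9, *Sulf2*, was lower in *Cilk1*-/- (1.38% of all genes were). At the same threshold 2 of the 9, *Sulf2* and *Ndst1*, were lower in the compound mutant (3.75% of all genes) and 1, *Hs3st3a1*, was higher (2.82%), and 0 passed between the mutants (3.33%). Without any overlap of libraries, 2 of the 9 lay lower (10.7% of all genes) and 1 higher (10.2%) in *Cilk1*-/- than in wild type. In the same way 3 lay lower (9.05% of all genes) and 1 higher (8.92%) in the compound mutant than in wild type, and 0 were separated between the mutants (17% of all genes). The median difference of the 9 from wild type was 0.025 for *Cilk1*-/- and 0.14 for the compound mutant, beside 0.0032 and −0.0016 for all genes. Both comparisons with wild type use the same 4 wild-type libraries.

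**Figure D2:**
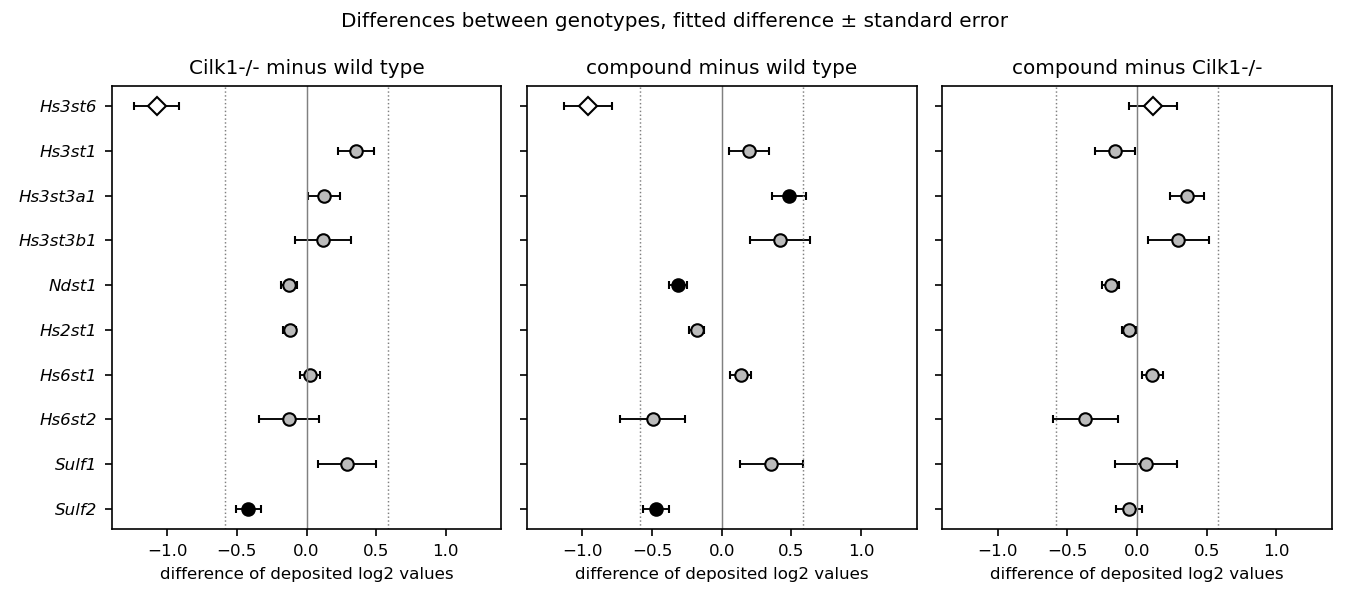
Fitted difference in the deposited log2 value of each enzyme on the x axis, with its standard error as a bar, for the 3 comparisons of genotypes. Black points have an adjusted p under 0.05 (limma), grey points do not, the white diamond is Hs3st6, which was not tested, and the dotted lines mark a fold change of 1.5. No tested enzyme lies beyond a dotted line, and the black points are Sulf2 in Cilk1-/- and Sulf2, Ndst1 and Hs3st3a1 in the compound mutant.

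The other 3-O-sulfotransferases of the set had mean levels above wild type in both mutants, and none of them was called. *Hs3st1*, whose product makes the site in heparan sulfate that antithrombin binds (chr5:39613935-39755475, − strand), was at 2.50, 2.53, 2.13 and 2.42 in wild type. It was at 2.71, 2.64, 2.999 and 2.65 in *Cilk1*-/- and at 2.80, 2.69 and 2.27 in the compound mutant. All *Cilk1*-/- libraries were above all wild-type libraries, while the compound mutant overlapped both. The difference of 0.35 in *Cilk1*-/- (standard error 0.132) had an unadjusted p of 0.0219 and an adjusted p of 0.162, and that of 0.20 in the compound mutant had an adjusted p of 0.397 (limma).

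*Hs3st3a1* (chr11:64435332-64522841, + strand) and *Hs3st3b1* (chr11:63885792-63922290, − strand) encode enzymes with a nearly identical catalytic part, and their reads can be confused. The coding sequences of their GENCODE vM21 transcripts share an unbroken run of 401 bases, which is 34.0% of the coding bases of *Hs3st3a1* and 34.3% of those of *Hs3st3b1*. The stretch where that run begins is printed here because it shows how a read can fit both genes; the base in capitals is the last one that differs, and the 12 bases after it open the shared run. It covers coding bases 601 to 684 of *Hs3st3a1* and 595 to 678 of *Hs3st3b1*.
Hs3st3a1: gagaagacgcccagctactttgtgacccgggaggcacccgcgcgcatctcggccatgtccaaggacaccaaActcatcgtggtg
Hs3st3b1: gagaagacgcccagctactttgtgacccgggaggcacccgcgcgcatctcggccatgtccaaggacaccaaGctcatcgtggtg
Of the windows of 150 bases in the *Hs3st3a1* coding sequence, 24.5% occur unchanged in *Hs3st3b1*. No other pair of the 10 enzymes shared a coding run longer than 38 bases, the length shared by *Hs3st6* with each of these 2 genes, so no window of that size was common to *Hs3st6* and another member. The values of *Hs3st3a1* and *Hs3st3b1* depend on how the counting dealt with such reads, which is not given in the sources used here.

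*Hs3st3a1* was at 0.822, 0.922, 1.003 and 1.001 in wild type, at 1.205, 1.068, 1.004 and 0.975 in *Cilk1*-/-, and at 1.55, 1.09 and 1.63 in the compound mutant. All 3 libraries of the latter were above wild type, with replicates 1 and 3 apart from replicate 2. Against wild type, *Cilk1*-/- differed by 0.13 (adjusted p = 0.574), whereas the compound mutant differed by 0.49 (standard error 0.121, adjusted p = 0.0427, limma). The adjusted p of the second was 0.251 with the set of libraries as a term and 0.150 in a fit of wild type and compound mutant alone. It was 0.163 with the replicate block, 0.1002 without compound mutant replicate 1 and 0.0770 without replicate 3. It stayed under 0.05 in only 1 of the 11 fits that leave out a library, the fit without compound mutant replicate 2, where the difference was 0.65. With compound mutant replicate 2 as the only library of its genotype, the difference was 0.15. Of the exon bases of *Hs3st3a1*, 32.9% are also exon bases of *F930015N05Rik* on the opposite strand, and reads there cannot be told apart without strand. *F930015N05Rik* had a mean level of 0.39 in wild type, 0.37 in *Cilk1*-/- and 0.61 in the compound mutant.

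*Hs3st3b1* was at 2.10, 2.20, 2.63 and 2.19 in wild type, at 2.47, 2.49, 2.13 and 2.50 in *Cilk1*-/-, and at 2.32, 2.47 and 3.30 in the compound mutant. The genotypes overlapped, and compound mutant replicate 3 was far above all other libraries. Its differences from wild type were 0.12 in *Cilk1*-/- (adjusted p = 0.791) and 0.42 (standard error 0.217, adjusted p = 0.240, limma) in the compound mutant. Turned back and added together, *Hs3st3a1* and *Hs3st3b1* had means of 4.82 in wild type, 5.39 in *Cilk1*-/- and 7.50 in the compound mutant, with a highest library of 10.9. Whether the sum depends less on how shared reads were handled was not tested.

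As shares of the summed turned-back values of these 4 enzymes, *Hs3st6* made up 61.4% to 70.2% in wild-type libraries, 39.1% to 45.1% in *Cilk1*-/- and 36.9% to 51.6% in the compound mutant. The means were 67.0% ± 3.80 (SD, n = 4), 42.6% ± 2.56 (n = 4) and 42.0% ± 8.31 (n = 3). The sum itself was 27.9 ± 3.96 in wild type, 19.4 ± 0.895 in *Cilk1*-/- and 21.8 ± 2.61 in the compound mutant. *Hs3st6* was the largest of the 4 in every library, in compound mutant replicate 3 only narrowly, at 8.87 against 8.82 for *Hs3st3b1*. Shares of relative values describe the composition of the transcripts, and the low *Hs3st6* level that chose the set enters both the share and the sum.

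**Figure D3:**
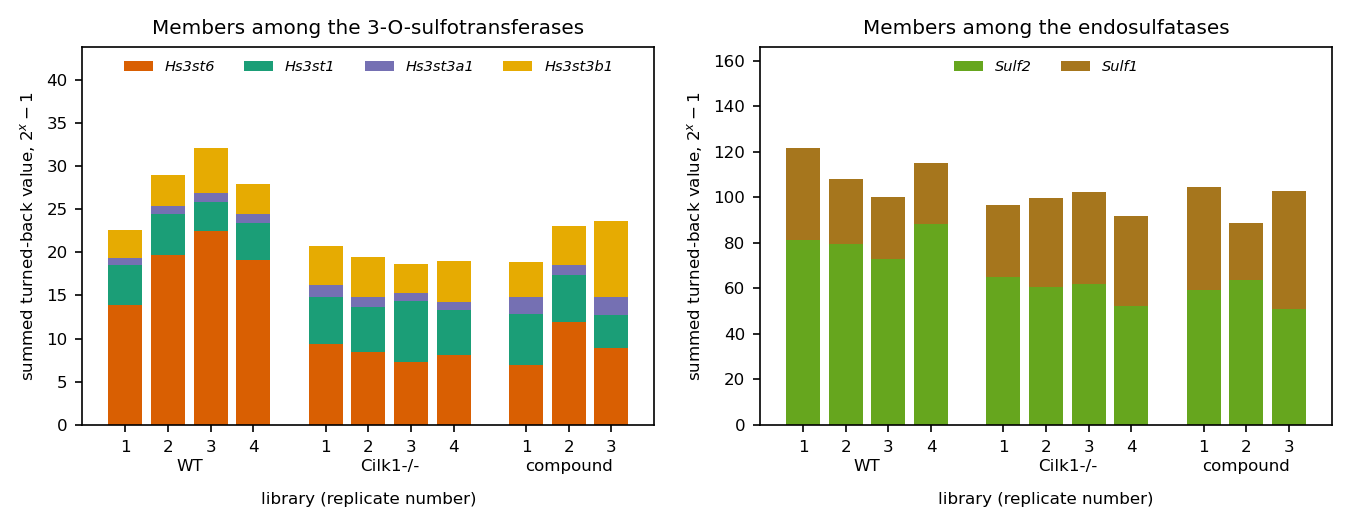
Turned-back values of the 4 3-O-sulfotransferases (left) and the 2 endosulfatases (right), stacked on the y axis for each library on the x axis. The Hs3st6 part of the bar is between 13.9 and 22.5 in wild type and between 7.31 and 9.35 in Cilk1-/-, and the Sulf2 part is lower in all mutant libraries than in any wild-type library.

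*Sulf2*, the most highly expressed of the set, was lower in both mutants by less than the fold minimum (chr2:166073089-166155663, − strand). It was at 6.36, 6.33, 6.21 and 6.48 in wild type, at 6.05, 5.95, 5.98 and 5.74 in *Cilk1*-/-, and at 5.91, 6.01 and 5.69 in the compound mutant. All libraries of both mutants lay below all wild-type libraries, with the compound mutant present in only 1 of the sets of libraries. The difference was −0.42 in *Cilk1*-/- (standard error 0.0869, adjusted p = 0.0393) and −0.47 (standard error 0.0939, adjusted p = 0.0197, limma) in the compound mutant. Turned back, its mean was 0.746 of the wild-type mean in *Cilk1*-/- embryos and 0.718 of it in compound mutants. The replicate block gave adjusted p-values of 0.160 and 0.111, and the set of libraries as a term gave 0.0782 and 0.201. Fits of only the 2 genotypes compared gave 0.0102 and 0.0865. Leaving out a library put the adjusted p between 0.0182 and 0.124 in *Cilk1*-/-, under 0.05 in the 3 of 11 fits that leave out a compound mutant library and over it in all others. In the compound mutant it lay between 0.00764 and 0.0660, over 0.05 without wild-type replicate 2 (0.0553) or 4 (0.0660). With compound mutant replicate 2 as the only library of its genotype the difference was −0.33 (adjusted p = 0.149). The difference between the mutants was −0.06 (standard error 0.0939, adjusted p = 0.758). The exons of *Ncoa3* on the opposite strand hold 2.6% of the exon bases of *Sulf2*.

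*Sulf1* encodes the other endosulfatase (chr1:12692277-12861192, + strand) and had no such pattern. It was at 5.37, 4.87, 4.82 and 4.81 in wild type, at 5.02, 5.32, 5.37 and 5.33 in *Cilk1*-/-, and at 5.54, 4.70 and 5.73 in the compound mutant. Replicate 1 was the high library of wild type and the low one of *Cilk1*-/-, and the groups overlapped. The difference was 0.29 in *Cilk1*-/- (adjusted p = 0.468) and 0.36 (standard error 0.226, adjusted p = 0.330, limma) in the compound mutant. Compound mutant replicate 2 decided the second value: without it the difference was 0.67 with an adjusted p of 0.0214, and with replicates 1 and 3 left out instead it was −0.27. Within the turned-back sum of both endosulfatases, *Sulf2* made up 72.5% ± 4.12 (SD, n = 4) in wild type, 61.5% ± 4.27 (n = 4) in *Cilk1*-/- and 59.2% ± 11.5 (n = 3) in the compound mutant. The shares of wild type (66.8% to 76.6%) and *Cilk1*-/- (57.2% to 67.4%) overlapped.

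*Ndst1*, the enzyme of the first modification step (chr18:60684494-60748650, − strand), was at 5.23, 5.18, 5.09 and 5.26 in wild type. It was at 4.99, 5.09, 5.13 and 5.06 in *Cilk1*-/- and at 4.81, 4.80 and 5.02 in the compound mutant. Only the compound mutant lay wholly below wild type. Its difference was −0.31 (standard error 0.0638, adjusted p = 0.0216, limma), and that of *Cilk1*-/- was −0.12 (adjusted p = 0.265). The first had an adjusted p of 0.148 with the replicate block and of 0.161 with the set of libraries as a term. In a fit of wild type and compound mutant alone it was 0.108. The adjusted p was under 0.05 in 7 of the 11 fits that leave out a library. It was 0.0538 without compound mutant replicate 1, and 0.0501, 0.0591 and 0.0711 without wild-type replicates 1, 2 and 4. The compound mutant differed from *Cilk1*-/- by −0.19 (adjusted p = 0.116), so a lower level in one mutant than in the other was not established.

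None of the 2-O and 6-O sulfotransferases passed the adjusted p against wild type. *Hs2st1*, the single 2-O-sulfotransferase (chr3:144429706-144570181, − strand), ran from 4.54 to 4.69 in wild type, from 4.41 to 4.52 in *Cilk1*-/- and from 4.33 to 4.47 in the compound mutant. Both mutants lay below wild type without overlap, with differences of −0.12 (standard error 0.0483, adjusted p = 0.184) and −0.18 (standard error 0.0522, adjusted p = 0.0633, limma). *Hs6st1* (chr1:36068400-36106446, + strand), the more highly expressed 6-O-sulfotransferase, ran from 5.26 to 5.42 in wild type, from 5.23 to 5.49 in *Cilk1*-/- and from 5.39 to 5.62 in the compound mutant. The groups overlapped, and the differences were 0.025 (adjusted p = 0.888) and 0.14 (adjusted p = 0.271).

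*Hs6st2* (chrX:51387212-51681856, − strand), the other 6-O-sulfotransferase of the set, was at 3.78, 3.55, 3.43 and 3.73 in wild type, at 3.50, 3.58, 3.63 and 3.28 in *Cilk1*-/-, and at 3.37, 3.61 and 2.40 in the compound mutant. One library, compound mutant replicate 3, was far below all others. The difference from wild type was −0.12 in *Cilk1*-/- (adjusted p = 0.799) and −0.49 (standard error 0.234, adjusted p = 0.204, limma) in the compound mutant. Without compound mutant replicate 2 it was −0.74 with an adjusted p of 0.0469, and with that replicate alone it was −0.012. *Hs6st1* made up 77.7% of the turned-back sum of both in wild type, 79.6% in *Cilk1*-/- and 84.1% in the compound mutant.

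Across all 11 libraries, the levels of *Sulf2* followed those of *Hs3st6* most closely among the set, with a Pearson correlation of 0.805, and *Sulf1* ran most opposite, at −0.720. *Hs2st1* had 0.627, *Ndst1* 0.498, *Hs6st2* 0.305, *Hs3st3b1* −0.184, *Hs6st1* −0.268, *Hs3st3a1* −0.504 and *Hs3st1* −0.687. By this measure *Sulf2* took place 658 among the 13027 genes with a mean level of at least 1. The genes most like *Hs3st6* were *Dlgap5* (0.983), *Dusp9* (0.980), *Kif18b* (0.978), *Melk* (0.970) and *Psmd13* (0.969). *Dusp9* had mean levels of 2.61 in wild type, 1.99 in *Cilk1*-/- and 2.14 in the compound mutant. *Dlgap5*, with 4.16, 3.90 and 3.92, had the same order of genotype means as *Hs3st6* over a smaller range. These correlations describe libraries that share genotypes, so a gene that is lower in both mutants can score high on that alone.

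Beyond the set, 48 further genes of the pathway were measured, from the linker to the core proteins. By limma 0 of them were called in *Cilk1*-/-, 0 in the compound mutant against wild type and 0 between the mutants. Of all genes, 0.37%, 1.25% and 0.543% were called, so 0 calls in a list of this size is near that share. At an unadjusted p under 0.05, 4 were higher and 6 lower in *Cilk1*-/-, 3 were higher and 8 lower in the compound mutant, and 7 were higher and 5 lower between the mutants. These were 20.8%, 22.9% and 25% of the 48, beside 20.7%, 26.7% and 23.2% of all genes. Their median differences were −0.0079, 0.011 and 0.015, close to those of all genes. At an adjusted p under 0.05 with no fold minimum, 3 were lower in *Cilk1*-/-, 3 were lower and 2 higher in the compound mutant, and 1 was higher between the mutants. These were 6.25%, 10.4% and 2.08% of the 48, beside 2.44%, 6.58% and 3.33% of all genes.

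The core protein *Gpc3*, a glypican that binds Hedgehog ligands, had the highest level of the core proteins. It was at 7.96, 7.82, 7.74 and 7.90 in wild type, at 7.43, 7.40, 7.46 and 7.29 in *Cilk1*-/-, and at 7.57, 7.50 and 7.15 in the compound mutant. As with *Sulf2*, each mutant library was below each wild-type library. The differences were −0.46 in *Cilk1*-/- (standard error 0.0885, adjusted p = 0.0293) and −0.45 (standard error 0.0956, adjusted p = 0.0259, limma) in the compound mutant. The syndecans *Sdc3* and *Sdc4*, membrane-spanning core proteins, were higher in the compound mutant, by 0.43 (adjusted p = 0.0489) and 0.405 (adjusted p = 0.0182). With the replicate block the adjusted p of *Gpc3* was 0.134 and 0.111, that of *Sdc3* 0.163 and that of *Sdc4* 0.119.

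Of the enzymes that start and extend the chain, *Extl3*, which adds the first glucosamine of heparan sulfate, was at 4.78 to 4.89 in wild type, 4.54 to 4.67 in *Cilk1*-/- and 4.52 to 4.69 in the compound mutant. Its difference was −0.24 in both mutants (adjusted p = 0.0347 and 0.0282, limma), with 0.161 and 0.155 under the replicate block. The polymerase subunit *Ext1* differed by −0.18 in the compound mutant (adjusted p = 0.0293, 0.178 under the block) and by −0.10 in *Cilk1*-/- (adjusted p = 0.162). *B3galt6*, a galactosyltransferase of the linker, differed by −0.23 in *Cilk1*-/- (adjusted p = 0.0245, 0.204 under the block) and by −0.07 with both deletions (adjusted p = 0.307), and the mutants differed by 0.15 (adjusted p = 0.0832). *B3gat3*, which completes the linker, was higher in the compound mutant than in *Cilk1*-/- by 0.23 (adjusted p = 0.0385, 0.237 under the block). None of these reached a fold change of 1.5.

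The other genes at the top of their group in level or in difference did not pass the adjusted p (limma). *Xylt1*, which starts the linker, differed by 0.26 in *Cilk1*-/- and 0.27 in the compound mutant, and *Xylt2*, which does the same step, by −0.11 in the latter. *Ext2*, the partner of *Ext1*, and *Ndst2*, a relative of *Ndst1*, differed by −0.15 and −0.13 there. *Ndst4* differed by −0.16 in *Cilk1*-/- and −0.25 in the compound mutant, and *Hs6st3*, a 6-O-sulfotransferase, by 0.27 in the second. These differences lay within the range that holds 95% of all genes, −0.29 to 0.35 in *Cilk1*-/- and −0.40 to 0.60 in the compound mutant. So did those of *Papss1*, which makes the sulfate donor (0.06 in *Cilk1*-/-), *Impad1*, which clears its by-product (−0.15 in the compound mutant), and the lysosomal enzymes *Naglu* (0.19 in *Cilk1*-/-) and *Sgsh* (−0.09 in the compound mutant).

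A further 3-O-sulfotransferase, *Hs3st2*, was at 0.87, 1.13, 0.92 and 0.98 in wild type, at 1.60, 1.32, 1.45 and 1.46 in *Cilk1*-/-, and at 0.75, 1.31 and 0.87 in the compound mutant. Its *Cilk1*-/- libraries were all above the other 7, at a low level, with a difference of 0.48 from wild type (standard error 0.117, adjusted p = 0.0580) and of −0.48 between the mutants (adjusted p = 0.0635, limma). The largest differences of the pathway in the compound mutant rested on its replicate 1. The sulfate donor synthase *Papss2* was at 4.41, 2.49 and 2.78 in the compound mutant and at 2.43 to 2.88 in wild type. *Extl1* was at 1.90, 0.40 and 0.66 there and at 0.31 to 0.55 in wild type, and *Hpse2*, a relative of heparanase, at 2.26, 0.33 and 0.24 there and at 0.10 to 0.31 in wild type. Their differences from wild type, 0.62, 0.62 and 0.77, did not pass the adjusted p (limma). In compound mutant replicate 1, *Col2a1*, the collagen of cartilage, was at 8.62, against 3.58 to 3.72 in wild type. The bone genes *Runx2*, *Sp7*, *Alpl* and *Ibsp* were below every wild-type library there, at 4.83, 4.14, 5.49 and 2.93. The summed neuron markers were also highest in this library. Whether these levels are tied to those of *Papss2*, *Extl1* and *Hpse2* was not tested.

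**Figure D4:**
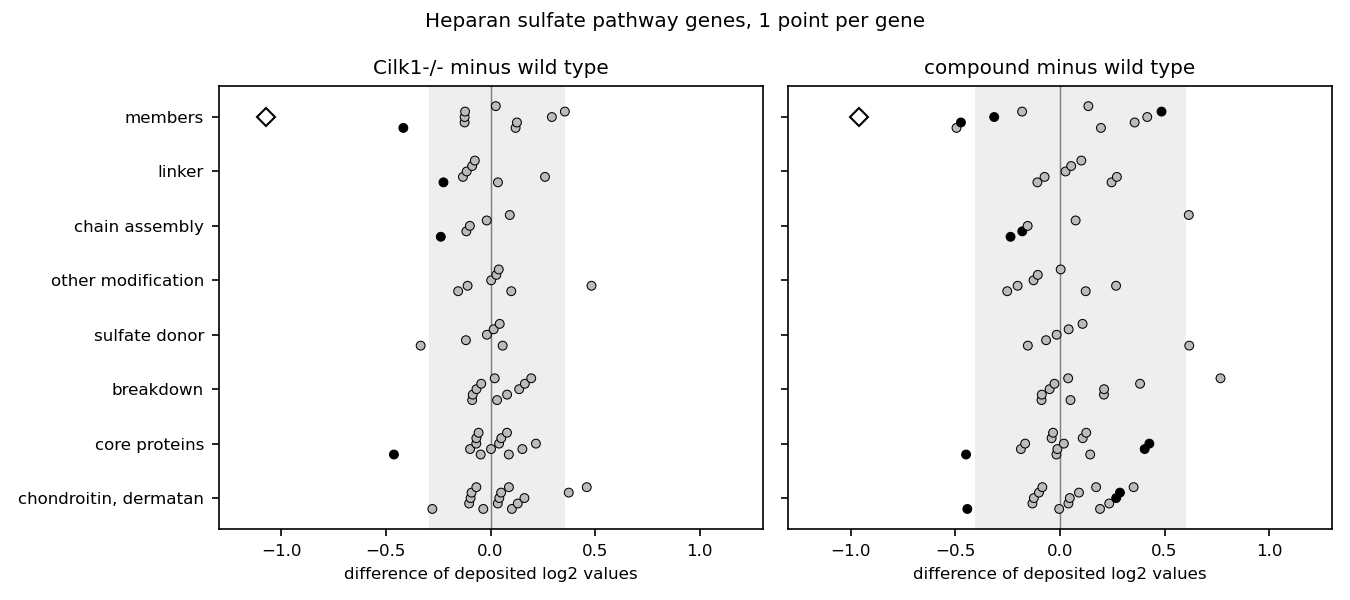
Difference from wild type in the deposited log2 value on the x axis, 1 point per gene, for the 10 enzymes (top line), the 48 other heparan sulfate genes by role and 15 chondroitin and dermatan sulfate enzymes. Black points have an adjusted p under 0.05 (limma), the white diamond is Hs3st6, which was not tested, and the grey band holds the middle 95% of all genes. Hs3st6 is at −1.07 and −0.96; it was chosen for a low value and the panels share the wild-type libraries, so its place outside the band restates that choice.

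Chondroitin and dermatan sulfate are built on the same linker by other enzymes. Of the 15 such genes measured, 0 were called by limma in any of the 3 comparisons, beside 0.37%, 1.25% and 0.543% of all genes. At an unadjusted p under 0.05, 3 were higher and 1 was lower in *Cilk1*-/-, 3 were higher and 2 lower in the compound mutant, and 3 were higher and 3 lower between the mutants. These were 26.7%, 33.3% and 40.0% of the 15, beside 20.7%, 26.7% and 23.2% of all genes. At an adjusted p under 0.05 with no fold minimum, 0, 3 and 1 of the 15 passed in the 3 comparisons, which is 0%, 20.0% and 6.67%, beside 2.44%, 6.58% and 3.33% of all genes. At that threshold, the compound mutant had *Chst12*, a 4-O-sulfotransferase, higher by 0.29 (adjusted p = 0.00519) and *Chpf*, a polymerising factor, higher by 0.27 (adjusted p = 0.0358). *Chst15*, which adds a further sulfate, differed by −0.44 (adjusted p = 0.0489). *Chst12* was at 3.49, 3.46 and 3.50 in the compound mutant and between 3.10 and 3.23 in all 8 other libraries. Its difference between the mutants was 0.32 (standard error 0.0392, adjusted p = 0.00770). With the replicate block the adjusted p of *Chst12* was 0.106 against wild type and 0.144 between the mutants, that of *Chpf* 0.155 and that of *Chst15* 0.158. *Chsy3*, a polymerase, differed by 0.46 in *Cilk1*-/- (adjusted p = 0.0561) and *Ust*, a 2-O-sulfotransferase of these chains, by 0.35 in the compound mutant (adjusted p = 0.0515, limma), while *Chsy1*, the highest of the 15, differed by −0.09 and 0.09.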

How the data were processed

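Per the labels and the study's methods, the authors mapped paired-end reads of poly-A RNA to mm10 with HISAT2 2.0.5, counted them per gene with featureCounts 1.5.0-p3 and computed FPKM values. The deposited table gives 1 log2 value per gene and library for 16755 genes, which appears to be log2(value + 1) of FPKM for most genes, but 328 of 184305 values, in 257 genes, are below 0, which that formula cannot give. They were used as deposited and set to 0 for the alternative pseudocount. The step that made it, and whether strand was used, are not given in the sources used here. Read counts were not used, so the planned count model was replaced by limma 3.58.1 in R 4.3.3 (lmFit, eBayes with trend and robust, 1 fit of the 3 genotypes, Benjamini-Hochberg over all genes), tested on simulated data. Turned-back values are 2 raised to the deposited value, minus 1, and sum to between 339970 and 364610 per library.

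The members and the gene lists were chosen with earlier results of these data known. Pathway genes named were those highest in level, highest or lowest in difference in their list, and called, of which there were 0; 1 of them is not reported here. Those passing the adjusted p alone, *F930015N05Rik*, *Ncoa3*, *Col2a1*, *Col9a1*, *Acan*, *Matn1*, *Ibsp*, *Bglap*, *Runx2*, *Sp7*, *Alpl* and *Sox9* were named after their values were seen. *Hs3st4* and *Chst13* are not listed. GENCODE vM21 (mm10) gave the positions, for 15922 symbols with 1 match, and the coding sequences. Plots were drawn with matplotlib 3.10.9 in Python 3.11.15.

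Over all genes, deviations of same-numbered wild-type and *Cilk1*-/- libraries correlated at −0.741, −0.892, −0.848 and −0.792 for numbers 1 to 4, and those of compound mutant libraries at −0.117 to 0.256 with the libraries of their number. Alternatives were a replicate block, the set of libraries as a term, only the 2 genotypes compared, eBayes without trend, other thresholds, scalings, a pseudocount of 0.1, a mean level of at least 1, and leaving out libraries.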

Additional observations from a re-analysis of the deposited data

Results flagged for a closer look

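In 3 of the 20 combinations of a member and a genotype with 4 libraries, 1 library lay far from the others by Dixon's test, which chance alone does in about 1 of 20. *Hs3st3b1* was lowest in *Cilk1*-/- replicate 3, at 2.13, with the other *Cilk1*-/- libraries at 2.47 to 2.50. *Sulf1* was highest in wild-type replicate 1, at 5.37, and lowest in *Cilk1*-/- replicate 1, at 5.02. Both *Sulf1* libraries carry the same replicate number and lie on opposite sides of their genotype means, as such pairs do over all genes. Groups of 3 libraries, and so the compound mutant, were not tested in this way.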

How the results depend on the processing

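With the replicate number as a block, 0 of the 9 tested members and 0 of the 48 pathway genes were called in each of the 3 comparisons, as without it. Over all genes the block left 4, 26 and 2 calls, against 62, 209 and 91 without it, and no tested member kept an adjusted p under 0.05 with it. Placing the compound mutant with pair 4 in the block, chosen after seeing the data, also gave 0, beside 4, 0 and 0 calls over all genes. With the set of libraries as a term, 0 of the 9 members and 0 of the 48 pathway genes were called. Over all genes that fit gave 37, 18 and 1 calls. The numbers are not known to mark litters. For *Cilk1*-/- against wild type, the negative correlations of same-numbered libraries can make p-values without the block too low. A result that passes only without the block is therefore not taken as settled.

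Member calls in the compound mutant against wild type were 1 with a pseudocount of 0.1 (*Hs3st3a1*, 0.80, adjusted p = 0.0413, limma) and 0 to 3 when a library was left out, the 3 without compound mutant replicate 2 being *Hs3st3a1* (0.65), *Hs6st2* (−0.74) and *Sulf1* (0.67). Calls over all genes in this comparison were 209, against 547 with that pseudocount and 671 without that replicate. Leaving out a library gave 0 to 1 pathway calls in the compound mutant against wild type and 0 to 2 between the mutants. Over all genes such fits gave 80 to 671 and 36 to 360 calls. With no fold minimum, 1 member passed in *Cilk1*-/- and 3 in the compound mutant, and 3, 5 and 1 pathway genes passed in the 3 comparisons. Of all genes, 2.44%, 6.58% and 3.33% passed in these comparisons. At an unadjusted p with the fold minimum, 1 pathway gene passed in the compound mutant against wild type and 1 between the mutants. Of all genes, 2.98% and 2.09% passed in these 2 comparisons, so 1 of 48 is near that share. The difference of *Hs3st6* between the mutants was 0.12, and it was −0.064 without compound mutant replicate 2. With only that replicate, chosen after seeing the data, it was 0.48, and −0.60 against wild type. The cause of these changes was not tested.

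The unknown depth limits low genes most: *Hs3st3a1*, *Hs3st2*, *Extl1* and *Hpse2* lie near or below a turned-back value of 1 in wild type, where the added 1 shrinks differences.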
